A study of Mus musculus with 6 samples.

Results

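CC chemokines are small secreted proteins that direct the movement of leukocytes, and 9 genes of this system are described here across the arrays of visceral fat from mice with and without heme oxygenase-1 (HO-1, gene Hmox1) in Pdgfra-expressing cells. They are the ligand genes Ccl2, Ccl3, Ccl6, Ccl7, Ccl8 and Ccl9 and the receptor genes Ccr2, Ccr3 and Cx3cr1. A gene was taken where the platform annotation gave a probeset that single symbol, and each of the 9 had 1 such probeset. They are 9 of 19938 genes with a symbol of their own on the array. All 9 passed the filter on dim genes (log2 intensity above 7 in at least 3 arrays), although Ccr3 did so only through the Hmox1f/f arrays.

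A CC chemokine binds a membrane receptor on the target cell, the receptor activates a heterotrimeric Gi protein, and the cell polarises and migrates up the gradient. Ligands and receptors are promiscuous, so that most ligands act on more than one receptor and most receptors bind several ligands. In fat, CCL2 acting on CCR2 is the best known route by which blood monocytes enter the tissue of obese mice, and macrophages and precursor cells are both sources of CC ligands.

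The study asked how HO-1, the enzyme that degrades heme, acts in adipose precursors (APs) under a high-fat diet (HFD). In Hmox1f/f PdgfraCre mice, loxP sites flank exon 2 of Hmox1 on both alleles and Cre is expressed from the promoter of Pdgfra, a receptor gene that marks APs. Hmox1f/f mice carry the same floxed alleles and no Cre, so an effect of Cre itself and one of losing Hmox1 cannot be told apart. All mice were males on the C57BL/6J background that had been fed a HFD for 8 weeks from 6 weeks of age. There were 3 arrays of Hmox1f/f PdgfraCre mice (numbers 1 to 3) and 3 of Hmox1f/f mice (numbers 4 to 6), and each held RNA from the perigonadal visceral fat (viWAT) of 2 pooled mice. The labels give the material as adipose precursor cells in some fields and as viWAT in others, and the study's methods describe purification of APs with antibody-coated beads. On the arrays 11 of 12 AP markers were found and all 11 passed the filter. So did 18 of 20 macrophage and monocyte markers, 9 of 10 mature adipocyte markers and 8 of 8 endothelial markers. Log2 intensities over all arrays were 12.74 to 13.10 for Adipoq, 12.36 to 13.09 for Cd68 and 10.05 to 10.36 for Pdgfra. The study took high Pdgfra with low CD68 and AdipoQ as its sign of enriched APs. That sign rested on Q-PCR of each gene compared between fractions of fat. Array intensities of different genes cannot be compared in that way. The share of RNA that came from APs is not known, and the values below are not read as those of APs alone.

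Hmox1 itself had log2 intensities of 11.25, 11.36 and 10.74 in Hmox1f/f PdgfraCre arrays and of 11.90, 11.63 and 12.32 in Hmox1f/f arrays. The groups did not overlap, and the difference was -0.83 ± 0.23 (SE; limma unadjusted p = 0.00944, adjusted p = 0.266). Where the Hmox1 probes lie relative to the deleted exon is not given in the sources used here. Across all genes the median array intensity was 106 to 115 and the arrays correlated with r of 0.960 to 0.996. Genes of the epididymis, which lies against this fat pad, were uneven across arrays. Lcn5 had a log2 intensity of 12.21 on Hmox1f/f PdgfraCre array 1 and Gpx5 of 10.33 on Hmox1f/f array 6. Adam7, the only one of the 8 found that was tested, had 11.68, 5.43 and 8.93 in Hmox1f/f PdgfraCre arrays and 5.49, 5.52 and 7.85 in Hmox1f/f arrays, so that array 3 with Cre was above array 6 for this gene. The results on the chemokine genes were therefore also computed without arrays 1 and 6 together, and without array 3.

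The window of 250 bases before the start site is shown for the 5 genes whose arrays did not overlap between genotypes, a choice made after their values were seen. The sequences are from RefSeq (GRCm38.p6), read 5′ to 3′ on the gene's own strand, and 7 of the 9 genes matched the promoter table, all but Ccl2 and Ccl7. Ccl9 (chr11:83578637-83578886, minus strand), Ccl6 (chr11:83593088-83593337, minus strand) and Ccl3 (chr11:83649379-83649628, minus strand) are neighbours in 1 gene cluster, Ccl8 (chr11:82114935-82115184, plus strand) belongs to another cluster of the same chromosome, and Ccr3 (chr9:124021721-124021970, plus strand) lies in the receptor cluster. Capitals mark matches, on either strand, to 4 short motifs of factors known to act on inflammatory or heme-responsive genes: NF-kB (GGGA, any 4 bases, CC), AP-1 (TGANTCA), PU.1 (GAGGAAGT) and a loose pattern for the antioxidant response element (TGANNNNGC, with any base at each N).
Ccl9: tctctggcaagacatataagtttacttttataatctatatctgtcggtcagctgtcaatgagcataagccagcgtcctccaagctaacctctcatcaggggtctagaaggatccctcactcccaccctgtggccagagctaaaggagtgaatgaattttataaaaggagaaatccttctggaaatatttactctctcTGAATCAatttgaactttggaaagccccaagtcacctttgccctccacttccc
Ccl6: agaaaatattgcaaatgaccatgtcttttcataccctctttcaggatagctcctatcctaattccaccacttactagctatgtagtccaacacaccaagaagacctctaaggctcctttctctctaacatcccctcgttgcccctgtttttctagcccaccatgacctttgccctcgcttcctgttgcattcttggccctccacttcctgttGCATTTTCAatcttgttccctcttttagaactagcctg
Ccl3: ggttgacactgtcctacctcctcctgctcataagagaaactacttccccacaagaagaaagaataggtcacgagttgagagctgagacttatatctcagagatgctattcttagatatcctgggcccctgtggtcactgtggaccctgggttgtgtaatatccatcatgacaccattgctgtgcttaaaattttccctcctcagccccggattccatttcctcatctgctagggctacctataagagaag
Ccl8: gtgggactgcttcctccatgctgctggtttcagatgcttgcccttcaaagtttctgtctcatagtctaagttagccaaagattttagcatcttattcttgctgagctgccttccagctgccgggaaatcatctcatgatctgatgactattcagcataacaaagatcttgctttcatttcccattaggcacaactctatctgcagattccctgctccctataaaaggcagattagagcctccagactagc
Ccr3: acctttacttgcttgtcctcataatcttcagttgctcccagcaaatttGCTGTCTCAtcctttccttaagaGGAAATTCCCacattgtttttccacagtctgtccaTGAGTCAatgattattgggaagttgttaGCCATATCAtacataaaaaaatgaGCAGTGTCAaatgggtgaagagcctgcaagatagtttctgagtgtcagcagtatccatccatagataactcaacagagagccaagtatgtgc
The Ccl9 window held 1 match, the AP-1 letters TGAATCA at 53 to 47 bases before the start. The Ccl6 window held 1 match to the loose antioxidant response pattern, on the opposite strand, at 38 to 30 bases before the start. The Ccr3 window held 5 matches: the NF-kB letters on the opposite strand at 179 to 170 bases before the start, the AP-1 letters TGAGTCA at 144 to 138, and 3 matches to the loose antioxidant response pattern on the opposite strand. No match overlapped another, and the Ccl3 and Ccl8 windows held none of the 4 motifs. The NF-kB letters were in 1 of the 7 windows of the chemokine genes, against 17.6% of 32851 RefSeq windows of the same length. AP-1 was in 2 of the 7 against 6.75%, PU.1 in 0 of the 7 against 2.44%, and the loose antioxidant response pattern in 4 of the 7 against 35.2%. A match is a run of letters and says nothing of binding, and no motif was in all 5 windows shown.

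Of the 9 genes, 6 were lower and 3 higher in Hmox1f/f PdgfraCre than in Hmox1f/f arrays, where 57.4% of all 11024 genes tested were lower. Their median log2 difference was -0.29, against -0.03 over all genes. None of the 9 had an adjusted p under 0.05 in limma, and neither had any other gene on the array (0 of 11024, 0%). The arrays of the genotypes did not overlap for 5 of the 9, Ccl3, Ccl6, Ccl8, Ccl9 and Ccr3, and all 5 were lower with Cre, where 21.2% of all genes were lower without overlap. The same 5 had an unadjusted p under 0.05 in limma, beside 12.8% of all genes in that direction, and 0 of the 9 were higher at that p, beside 3.03% of all genes. In either direction 5 of the 9 had an unadjusted p under 0.05, beside 15.8% of all genes. In the other direction 0 of the 9 genes were higher without overlap, and 5.82% of all genes were. With 3 arrays a group, an exact permutation test of a single gene cannot give a p below 0.1. The 9 genes were chosen with earlier results of these data known, and Ccr3 had to be high in Hmox1f/f arrays to enter the test. The counts and the median are therefore a description of these genes, and setting them beside all genes is no test. In bulk RNA, fewer cells of a type and less RNA per cell cannot be told apart.

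**Figure D1:**
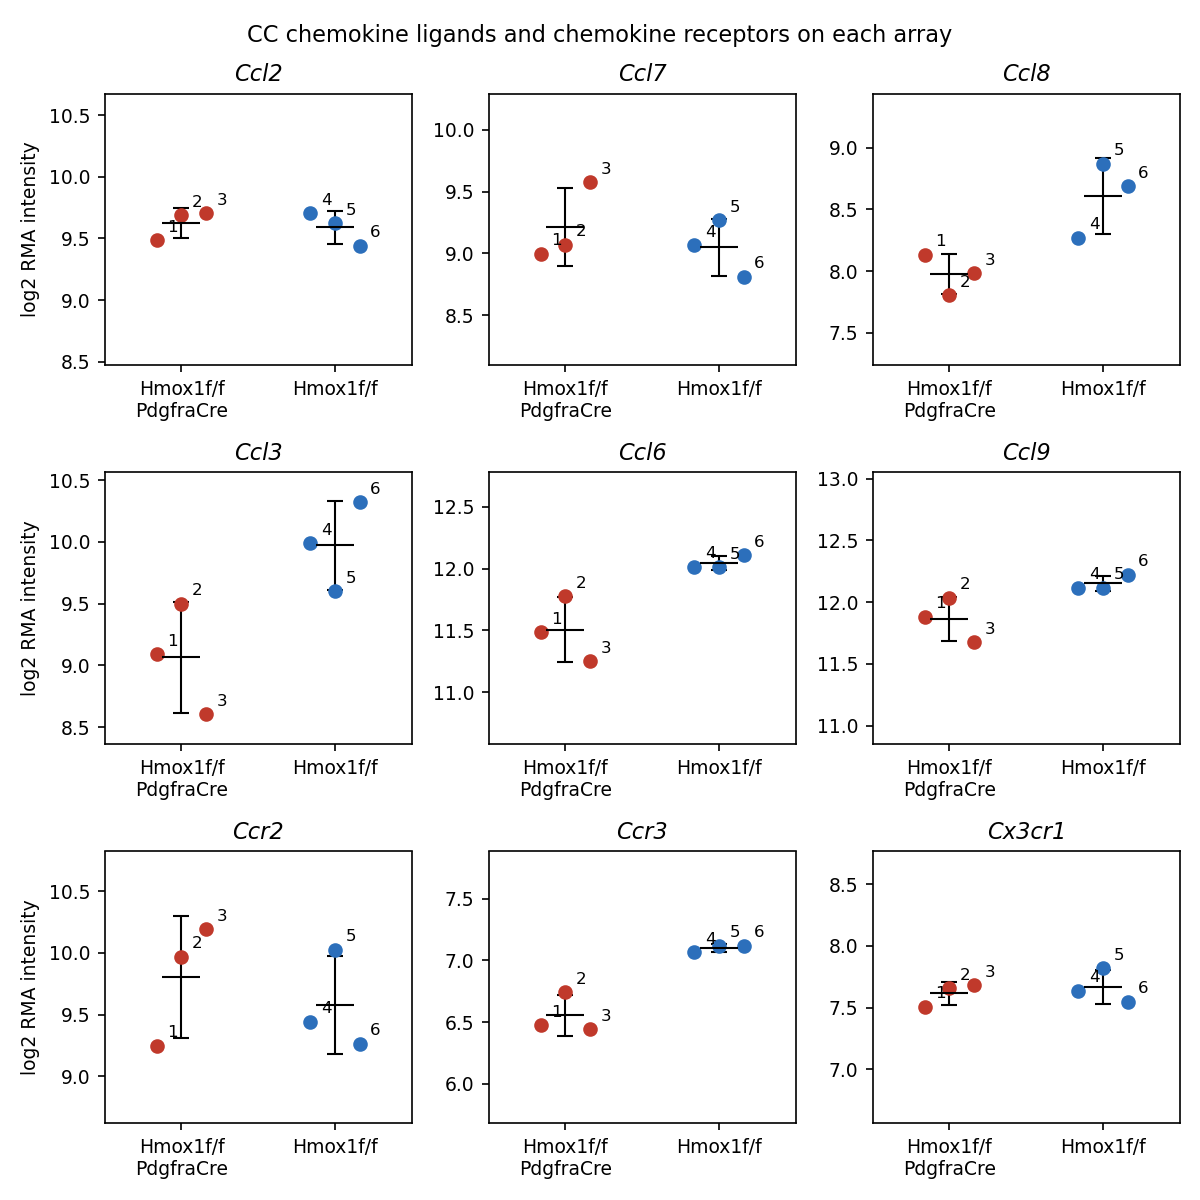
Log2 RMA intensity (y axis) of each of the 9 genes on each array, with Hmox1f/f PdgfraCre arrays 1 to 3 in red and Hmox1f/f arrays 4 to 6 in blue, and bars for the group mean ± SD (n = 3 each). All panels span the same number of log2 units. The red and blue points separate for Ccl8, Ccl3, Ccl6, Ccl9 and Ccr3, and they interleave for Ccl2, Ccl7, Ccr2 and Cx3cr1.

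The first ligands are the monocyte chemoattractant proteins Ccl2, Ccl7 and Ccl8, which lie together on chromosome 11. Ccl2, the main ligand of CCR2, had log2 intensities of 9.49, 9.69 and 9.71 in Hmox1f/f PdgfraCre arrays and of 9.70, 9.62 and 9.44 in Hmox1f/f arrays. The groups covered nearly the same range. The difference was 0.04 ± 0.10 (SE) with a 95% interval from -0.21 to 0.29 (limma adjusted p = 0.862). The difference was thus smaller than the spread between pools, and the interval includes shifts of either sign within those bounds.

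Ccl7, which binds CCR2 as well as CCR1 and CCR3, had log2 intensities of 8.997, 9.07 and 9.58 in Hmox1f/f PdgfraCre arrays against 9.06, 9.27 and 8.81 in Hmox1f/f arrays. Array 3 with Cre was the highest and the other 5 arrays interleaved. The difference of 0.17 ± 0.19 (SE; 95% interval -0.29 to 0.62) had a limma adjusted p of 0.662, and without array 3 it was -0.01. The sign of the Ccl7 difference thus turned without a single pool of mice.

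Ccl8 stood apart from its neighbours. Its log2 intensities were 8.13, 7.81 and 7.98 in Hmox1f/f PdgfraCre arrays, against 8.27, 8.87 and 8.69 in Hmox1f/f arrays. All 3 arrays with Cre lay below all 3 without, although array 1 and array 4, the nearest of them, differed by little. The mean was 7.97 ± 0.16 in Hmox1f/f PdgfraCre and 8.61 ± 0.31 in Hmox1f/f arrays (SD, n = 3 each), which is 1.55-fold lower with Cre. The log2 difference was -0.64 ± 0.17 (SE; 95% interval -1.05 to -0.22; limma unadjusted p = 0.00883, adjusted p = 0.266), and 115 of 11024 genes were as low or lower. In mice CCL8 is known as an agonist of CCR8, while human CCL8 also acts on CCR2.

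Ccl3, Ccl9 and Ccl6 form the second group of ligands. CCL3 (macrophage inflammatory protein-1 alpha) acts on CCR1, and CCL6 and CCL9 are ligands of CCR1 that are produced by myeloid cells in mice. Ccl3 had log2 intensities of 9.09, 9.50 and 8.60 in Hmox1f/f PdgfraCre arrays, against 9.99, 9.60 and 10.32 in Hmox1f/f arrays. The lowest array was number 3 with Cre and the highest number 6 without, and arrays 2 and 5 lay close together on either side of the gap. The means of 9.07 ± 0.45 in Hmox1f/f PdgfraCre and 9.97 ± 0.36 in Hmox1f/f arrays (SD, n = 3 each) differed by -0.91 ± 0.27 on the log2 scale (SE; 95% interval -1.56 to -0.25), or 1.87-fold lower with Cre. No other of the 9 genes differed by as much, but the spread within groups was wide too, and the limma unadjusted p was 0.0140 with an adjusted p of 0.266. Only 35 of 11024 genes were as low or lower.

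Ccl6 had log2 intensities of 11.49, 11.78 and 11.25 in Hmox1f/f PdgfraCre arrays and of 12.02, 12.01 and 12.11 in Hmox1f/f arrays. The Hmox1f/f arrays lay within a narrow band (12.05 ± 0.05, SD, n = 3), and the arrays with Cre were spread below it (11.50 ± 0.26, SD, n = 3). The difference of -0.54 ± 0.14 (SE; 95% interval -0.87 to -0.21) corresponds to 1.46-fold lower with Cre, with a limma unadjusted p of 0.00689 and an adjusted p of 0.266. Ccl9, the next gene along the chromosome, was lowest and highest on the same arrays as Ccl6, with log2 intensities of 11.88, 12.04 and 11.68 in Hmox1f/f PdgfraCre arrays against 12.12, 12.12 and 12.22 in Hmox1f/f arrays. Its difference was -0.29 ± 0.11 (SE; 95% interval -0.54 to -0.03; limma unadjusted p = 0.0336, adjusted p = 0.290). For Ccl9, 1057 of 11024 genes were as low or lower, so that of the 5 genes without overlap it was the nearest to the bulk of the array.

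Among the receptors, Ccr2, which carries inflammatory monocytes from marrow to tissue, had log2 intensities of 9.25, 9.97 and 10.19 in Hmox1f/f PdgfraCre arrays and of 9.44, 10.03 and 9.26 in Hmox1f/f arrays. Each group held low and high arrays and their ranges overlapped. The difference of 0.23 ± 0.30 (SE) had a wide 95% interval from -0.49 to 0.94 (limma adjusted p = 0.706). Cx3cr1, the receptor of the membrane-bound chemokine CX3CL1 and by its name no CC receptor, marks patrolling monocytes and many resident macrophages. Its log2 intensities were 7.51, 7.66 and 7.68 in Hmox1f/f PdgfraCre arrays against 7.64, 7.82 and 7.55 in Hmox1f/f arrays, a difference of -0.05 ± 0.10 (SE; 95% interval -0.29 to 0.19; limma adjusted p = 0.796). Neither monocyte receptor gene separated the genotypes.

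Ccr3, the receptor of eotaxins that is best known from eosinophils and is also found on basophils and mast cells, did. It had log2 intensities of 6.48, 6.74 and 6.44 in Hmox1f/f PdgfraCre arrays, all below the filter at 7, and of 7.07, 7.12 and 7.12 in Hmox1f/f arrays, just above it. The mean was 6.55 ± 0.16 in Hmox1f/f PdgfraCre and 7.10 ± 0.03 in Hmox1f/f arrays (SD, n = 3 each), and the Hmox1f/f arrays were almost level. The difference was -0.55 ± 0.10 (SE; 95% interval -0.78 to -0.31), or 1.46-fold lower with Cre, with a limma unadjusted p of 0.00115 that ranked 12 among 11024 genes and an adjusted p of 0.266. At these dim levels RMA compresses differences, and the gene was tested only because it was brighter in Hmox1f/f.

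**Figure D2:**
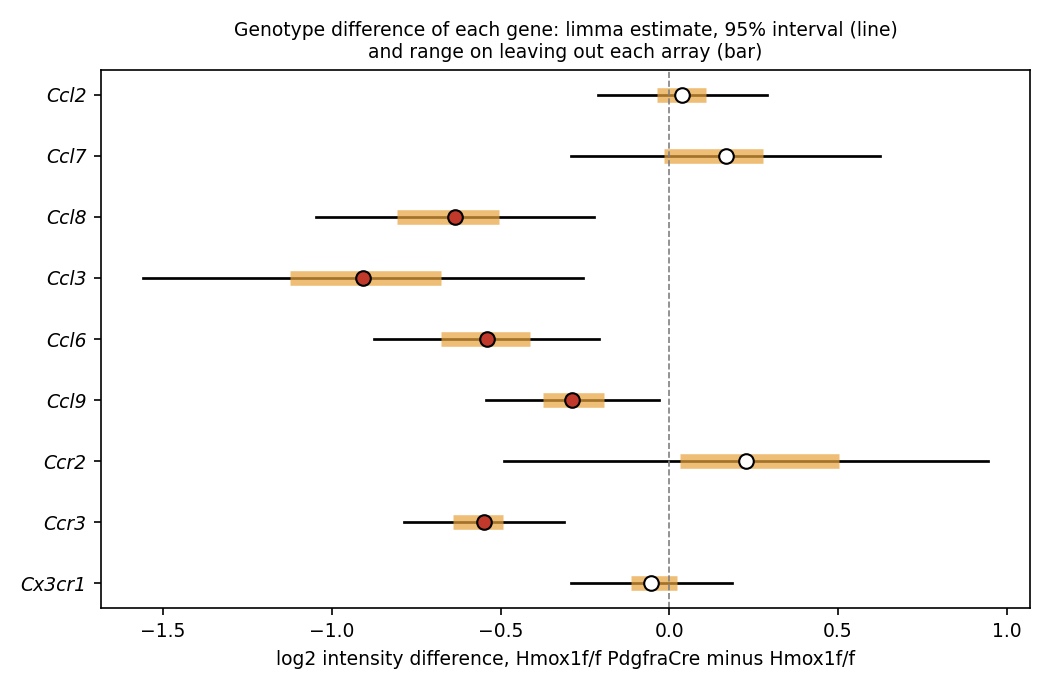
Log2 difference in intensity (Hmox1f/f PdgfraCre minus Hmox1f/f, x axis) of each gene, with the limma estimate as a point, its 95% interval as a line and the range of estimates on leaving out each array as a bar. Red points mark the 5 genes whose genotypes did not overlap. Their bars stay left of 0, from -1.12 for Ccl3 to -0.19 for Ccl9, while the bars of Ccl2, Ccl7 and Cx3cr1 cross 0.

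Array 3 with Cre was the lowest of all 6 arrays for 4 genes (Ccl3, Ccl6, Ccl9 and Ccr3) and the highest for 3 others (Ccl2, Ccl7 and Ccr2). It also got the lowest weight in limma's array weighting (0.320, where the other arrays had 0.583 to 2.15). When array 3 was left out, Ccl3 differed by -0.68, Ccl6 by -0.41, Ccl8 by -0.64 and Ccr3 by -0.49, each with an unadjusted p under 0.05, and Ccl9 by -0.19, with an unadjusted p of 0.0662 in limma. Leaving out array 1 with Cre and array 6 without, the highest in Lcn5 and Gpx5, while keeping array 3, gave differences of -0.75 for Ccl3 (limma unadjusted p = 0.102), -0.50 for Ccl6 (0.0673), -0.68 for Ccl8 (0.0441), -0.26 for Ccl9 (0.154) and -0.50 for Ccr3 (0.0194). With 2 arrays a group, 2 of the 9 genes, Ccl8 and Ccr3, thus had an unadjusted p under 0.05, as had 358 of 11024 genes in that direction, and Ccr3 is the gene that passed the filter only through its Hmox1f/f arrays.

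The genes were also set beside their neighbours in the chemokine clusters, in the order of the RefSeq gene table. In the cluster from Ccl2 to Ccl1, Ccl11 (eotaxin, a ligand of CCR3) had log2 intensities of 10.50, 10.75 and 10.53 in Hmox1f/f PdgfraCre arrays and of 10.54, 10.53 and 10.42 in Hmox1f/f arrays, a difference of 0.09 ± 0.09 (SE; limma unadjusted p = 0.342). Ccl12 and Ccl1 were too dim to be tested and differed by -0.04 and 0.15. Ccl8 was thus the only one of these 6 genes whose arrays separated, with 4 genes tested. In the cluster from Ccl5 to Ccl4, the 3 genes without overlap lie side by side. Ccl5 (RANTES, an attractant of lymphocytes and monocytes) at one end differed by -0.15 ± 0.15 (SE; limma unadjusted p = 0.373). Ccl4, which lies next to Ccl3, was below the filter at 6.29 to 6.55 in Hmox1f/f PdgfraCre arrays and 6.30 to 6.46 in Hmox1f/f arrays. In the receptor cluster Ccr1, the receptor of CCL3, CCL6 and CCL9, was also too dim to be tested, with log2 intensities of 6.00, 6.58 and 6.69 in Hmox1f/f PdgfraCre arrays and of 7.09, 7.0 and 6.70 in Hmox1f/f arrays, a difference of -0.51 with no test. The groups did not overlap, by a narrow gap. Ccr1l1, between Ccr1 and Ccr3, was below the filter too. It had 6.70, 5.67 and 5.49 in Hmox1f/f PdgfraCre arrays and 7.75, 5.61 and 7.58 in Hmox1f/f arrays, a difference of -1.03 with overlap and no test.

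**Figure D3:**
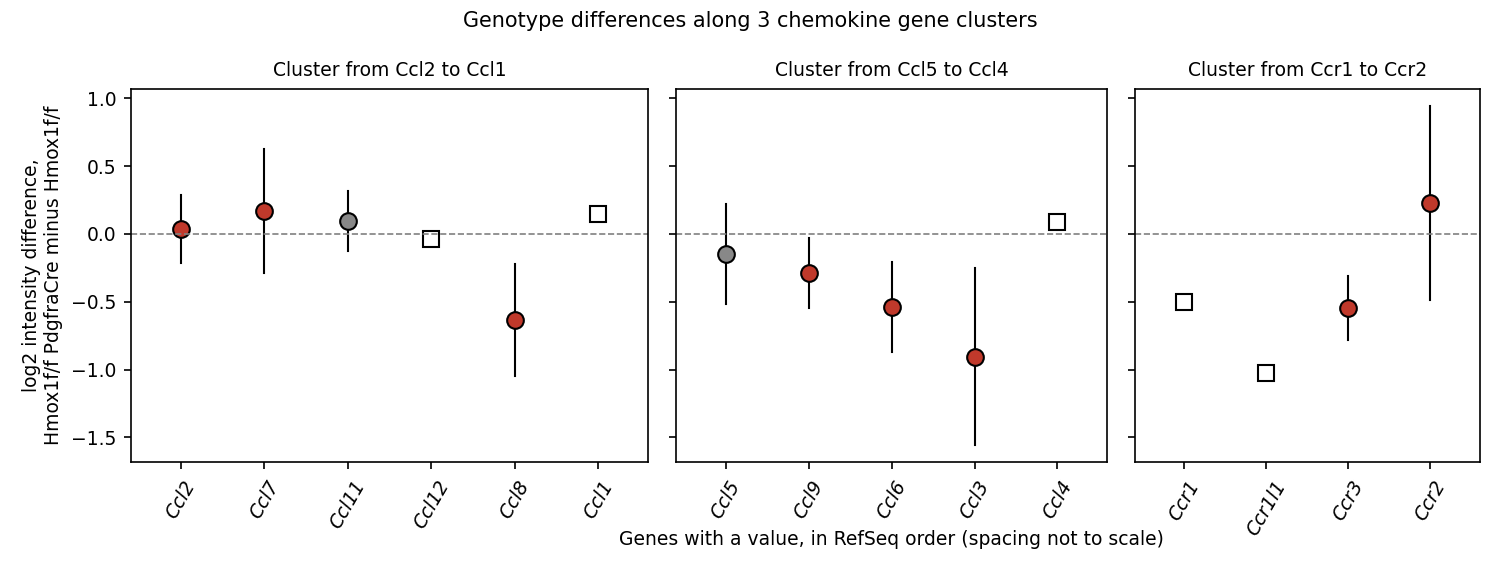
Log2 difference in intensity (Hmox1f/f PdgfraCre minus Hmox1f/f, y axis) of the genes with a value in 3 chemokine clusters in RefSeq order (x axis, not to scale). Red circles are the genes described here, grey circles other genes tested, lines their 95% limma intervals, and open squares genes below the filter, with no test. Ccl9, Ccl6 and Ccl3 are adjacent at -0.29, -0.54 and -0.91, and Ccr3 at -0.55 lies beside Ccr2 at 0.23.

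Of 18 further CC ligands 13 were found and 5 were tested, of which 1 was lower and 4 higher with Cre, with a median log2 difference of 0.09 and none with an unadjusted p under 0.05. Besides Ccl11 and Ccl5, the values were 0.15 ± 0.10 for Ccl24, another ligand of CCR3, and 0.10 ± 0.09 for Ccl25, the ligand of CCR9 (SE). Of 13 further receptors of CC chemokines 3 were tested, all atypical receptors that do not couple to G proteins in the usual way. The scavenging receptor gene Ackr2 differed by -0.20 ± 0.08 (SE; limma unadjusted p = 0.0441), with 7.51, 7.44 and 7.61 in Hmox1f/f PdgfraCre arrays and 7.80, 7.64 and 7.72 in Hmox1f/f arrays, without overlap. Ccrl2 differed by -0.32 ± 0.15 (unadjusted p = 0.0697) and Ackr4, a scavenger of CCL19 and CCL21, by 0.30 ± 0.20 (unadjusted p = 0.187).

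Of 17 CXC, XC and CX3C ligands 9 were tested, 5 lower and 4 higher, with a median of -0.04. Pf4 (CXCL4), made by platelets and by macrophages, was the only one with an unadjusted p under 0.05, at 8.61, 9.01 and 8.61 in Hmox1f/f PdgfraCre arrays against 9.17, 9.33 and 9.20 in Hmox1f/f arrays (difference -0.49 ± 0.13, SE; limma unadjusted p = 0.00773). Cxcl16 differed by -0.37 ± 0.18, Cxcl14 by -0.34 ± 0.18 and Cxcl12, the ligand of CXCR4, by 0.07 ± 0.10 (SE). Cx3cl1, the ligand of CX3CR1, differed by -0.11 ± 0.15. Of the CXC and XC receptors 2 were tested, Cxcr4 at -0.15 and Ackr3 at 0.01.

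Downstream of the receptors, 25 of 30 genes that carry or dampen the receptor signal, Rgs and arrestin genes among them, were found and tested. With Cre 23 were lower and 2 higher, with a median of -0.21, and 14 were lower without overlap. Of these genes, 11 were lower with an unadjusted p under 0.05 and none had an adjusted p under 0.05 in limma. Those with the smallest p were Vav1, an exchange factor for Rac, at -0.58 ± 0.15 (unadjusted p = 0.00650), Dock2, the Rac activator that leukocytes need to migrate to chemokines, at -0.27 ± 0.07 (0.00849), Coro1a, an actin-binding protein of leukocytes, at -0.45 ± 0.12 (0.00883), and Was, the actin regulator of blood cells, at -0.46 ± 0.13 (0.0103; all SE, limma). These 4 were named for their small p. Other genes of the list overlapped between genotypes, among them Rgs1 (-0.21), Rgs18 (-0.05) and Plcb2 (-0.05). Of the subunit genes of G proteins, Gnai2 differed by -0.14, Gnb2 by -0.14 and Gnb1 by -0.11, all 3 without overlap. Gnai3 differed by 0.00 with overlap. Whether a difference goes with the cell types that express a gene was not tested.

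Markers of macrophages and mast cells were lower on the arrays with Cre as well. Of 18 macrophage and monocyte markers tested, 18 were lower with Cre, 15 without overlap and 13 with an unadjusted p under 0.05 in limma, with a median of -0.43. Their mean log2 intensity was 10.56, 10.83 and 10.42 in Hmox1f/f PdgfraCre arrays and 11.06, 11.02 and 11.05 in Hmox1f/f arrays. The defining markers were bright in both genotypes, Adgre1 (F4/80) with 11.08 to 11.60 in Hmox1f/f PdgfraCre and 11.83 to 11.92 in Hmox1f/f arrays, and Cd68 with 12.36 to 12.93 in Hmox1f/f PdgfraCre and 12.97 to 13.09 in Hmox1f/f arrays. Of 9 mast cell markers 5 were tested, all 5 lower and 4 without overlap, with a median of -0.87 and array means of 7.88, 8.13 and 7.50 with Cre against 8.57, 8.48 and 8.77 without. The mast cell protease genes Cpa3 and Mcpt4 differed by -0.87 and -1.17, and the receptor gene Kit, which other cells also express, by -0.01. Both chains of the IgE receptor in the list were below the filter. Fcer1a had 4.95 to 5.36 in Hmox1f/f PdgfraCre and 5.81 to 6.30 in Hmox1f/f arrays, without overlap (difference -0.86, not tested), and Ms4a2 had 4.32 to 4.52 in Hmox1f/f PdgfraCre and 4.32 to 4.46 in Hmox1f/f arrays.

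Of 8 markers of eosinophils, the cells best known for CCR3, 2 were tested. Siglecf had 6.81 to 7.22 in Hmox1f/f PdgfraCre and 6.98 to 7.23 in Hmox1f/f arrays, a difference of -0.01, and Alox15, which macrophages also express, had 7.67 to 8.11 in Hmox1f/f PdgfraCre and 7.55 to 8.15 in Hmox1f/f arrays, a difference of 0.07. The granule genes Epx and Prg2, the receptor gene Il5ra and Ear6 were all below the filter, the brightest of them at 5.70. On the other side, 8 of 8 endothelial markers were higher with Cre without overlap (median 0.38; array means 9.89, 9.76 and 9.997 with Cre against 9.65, 9.54 and 9.27 without), and 9 of 9 mature adipocyte markers were higher (median 0.13, 5 without overlap). Of the other lists, 6 of 6 mesothelial markers were lower (median -0.19, none without overlap), and few markers of neutrophils (1 of 8 symbols), of T and NK cells (2 of 12) and of B cells (2 of 7) were bright enough to be tested, with medians of -0.04, -0.01 and -0.19. Of 11 AP markers 5 were lower and 6 higher, with a median of 0.01. Without overlap 3 were lower and 0 higher, where 21.2% and 5.82% of all genes were. The 3 were Pi16 (-0.30), which passed the filter only through its Hmox1f/f arrays, Icam1 (-0.19) and Pdgfra (-0.17). The part of these shifts in the chemokine results was not tested.

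**Figure D4:**
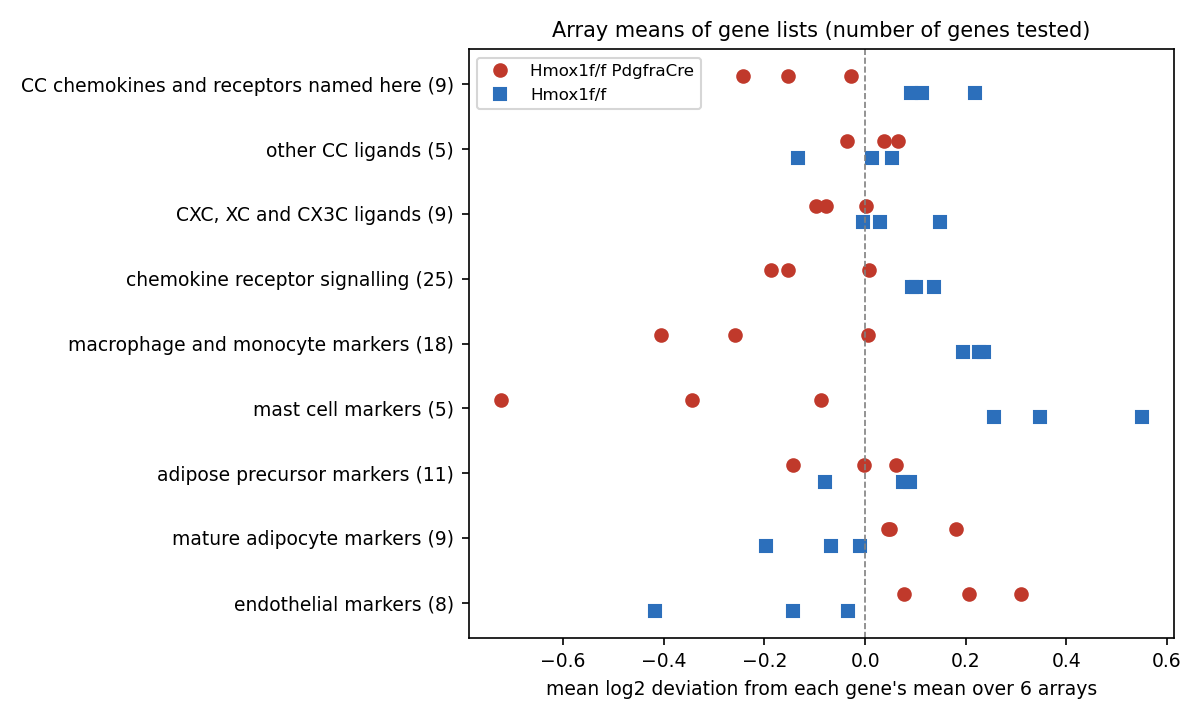
Mean deviation in log2 intensity of each gene list from its genes' means over the 6 arrays (x axis), with 1 point an array, Hmox1f/f PdgfraCre as red circles and Hmox1f/f as blue squares. Numbers in brackets are genes tested in each list. The 9 chemokine genes lie at -0.24, -0.03 and -0.15 with Cre and at 0.09, 0.22 and 0.11 without, and the macrophage, mast cell and signalling lists are ordered the same way by genotype.

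Profiles over the 6 arrays were also compared between genes. They contain the genotype differences given above, so the distances are not separate from those differences. The likeness of a pair was the root mean square distance between their mean-centred log2 profiles, given as a description, since the arrays of all genes are the same 6. Ccl6 and Ccr3 were the closest pair (0.0775), followed by Ccl2 and Cx3cr1 (0.0912) and by Ccl6 and Ccl9 (0.137), and Ccl3 and Ccr2 were the farthest apart (0.836). Among the other genes without overlap, Ccl8 was 0.246 from Ccr3 and Ccl3 was 0.280 from Ccl6, the nearest of the 9 to each.

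Among 10611 other named genes, those nearest to Ccl6 were Dpep2, a membrane dipeptidase gene (0.0086), Rasgef1b (0.0252) and the UDP receptor gene P2ry6 (0.0396). Dpep2 had log2 intensities of 9.79, 10.10 and 9.55 in Hmox1f/f PdgfraCre arrays and of 10.34, 10.32 and 10.41 in Hmox1f/f arrays, close to the shape of Ccl6 on every array. Nearest to Ccl9 were Ifngr2, Maf1 and Gpx1 (0.0162 to 0.0206), and nearest to Ccr3 were Arhgdib, Cndp2 and Pla1a (0.0441 to 0.0566). Ccl3 had the immune cell receptor gene Ly9 (0.0764), Mamdc2 (0.0945) and, in the third place, Hmox1 itself (0.110). Ccl3 and Hmox1 had the same order of all 6 arrays, lowest on array 3 with Cre and highest on array 6 without.

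Ccl8 had more distant nearest genes than any other of the 9. They were Pepd (0.193), Vsig4, a complement receptor of resident macrophages (0.196), and Npl (0.204). Among the arrays with Cre, Ccl8 was lowest on array 2, where Ccl3, Ccl6, Ccl9 and Ccr3 were highest. Of the genes whose genotypes overlapped, Ccl2 was nearest to Itgb1, Slc25a10 and Abcb9 (0.0255 to 0.0266), Ccl7 to Gbp3, Mrpl1 and Zfp131 (0.0337 to 0.0358), Ccr2 to Zfp942, Zfp943 and G2e3 (0.0965 to 0.119) and Cx3cr1 to Limk2, Cop1 and Jkamp (0.0252 to 0.0276).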

How the data were processed

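RNA of 6 pools of 2 mice was measured on Affymetrix mouse gene arrays after amplification and labelling of 200 ng of total RNA. The authors deposited a linear RMA intensity for each probeset, as whole numbers between 8 and 20701. The submitters' processing notes name Affymetrix Expression Console 1.1. RMA corrects background, quantile-normalizes and summarises the probes, which compresses differences of dim probesets and hides a shift shared by most genes. The number of arrays limits the precision, and no counts or depths belong to these values.

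Log2 of the deposited intensity was taken. Of 35556 probesets 21789 carried 1 gene symbol, 1621 several and 12146 were unnamed here. A gene with several probesets (999 genes) was represented by its brightest on average, giving 19938 genes. Genotypes were compared by limma 3.58.1 in R 4.3.3 (two-sided, lmFit then eBayes, genotype as the only term) on all 6 arrays. Variances were moderated over all genes, 11024 genes that exceeded log2 7 on 3 or more arrays were kept, and the Benjamini-Hochberg adjustment ran over these. The fit was tested on simulated data with independent noise and known shifts, a check of the calculation and not of the results on the chemokine genes. Intervals are 95% intervals of the limma estimate. The labels give separate pools but no batch, day or litter, so p-values measure the spread between pools. The array's genome build is not given in the sources used here, and RefSeq (GRCm38.p6) served for gene order and promoter windows only. Plots were made in Python 3.11.15 (matplotlib 3.10.9).

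The 9 genes and the other gene lists (18 lists with 206 symbols) were chosen with earlier results of these data known. Named are the 9 genes, Hmox1, up to 4 genes with the smallest unadjusted p of each list of other ligands, receptors and signalling genes, defining markers, and the 3 nearest profiles of each gene, leaving out predicted genes, clones and small RNAs. Chosen after their values were seen were Ccl12, Ccl1, Ccl4, Ccr1, Ccr1l1, Cx3cl1, Rgs1, Rgs18, Plcb2, the G protein subunit genes, the epididymal genes and the promoters shown. The alternatives were to drop the filter, to set it at log2 6, the filter of the study's methods (the upper tercile by mean absolute deviation as well), quantile normalization once more, centring on the array median, arrayWeights, eBayes with trend and robust options, averaging a gene's probesets, and omission of 1 array at a time. Added after seeing the data were a fit without the pair of arrays highest in Lcn5 and Gpx5 and a fit with the filter applied before moderation.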

Additional observations from a re-analysis of the deposited data

How the results depend on the processing

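The adjusted count was 0 under every setting tried, for the 9 chemokine genes and for all genes in limma. Ccl3, Ccl6, Ccl8 and Ccr3 kept their direction and an unadjusted p under 0.05 in limma under all 14 planned settings, with adjusted p-values from 0.0949 to 0.565, and Ccl9 kept its direction in 14 and an unadjusted p under 0.05 in 8. Some of the 14 could not have changed this. Moderation came before filtering, so the settings of the filter left each difference and unadjusted p as they were. Averaging probesets left each difference as it was, because each of these genes had a single probeset. Ccr3 passed the filter only through its Hmox1f/f arrays, and fits that left out an array kept the genes filtered on all arrays. How many of all genes stayed under that p throughout was not counted. After a further quantile normalization and after centring, which could have changed the overlap, 5 of the 9 genes were lower without overlap. The share of all genes without overlap was not computed under these settings. At an unadjusted p under 0.05 in limma, 4 of the 9 were lower after the quantile normalization, beside 1010 of 11011 genes. After centring 5 of the 9 were, beside 1571 of 11015 genes. The median of the chemokine genes was -0.54 under the filter of the methods, which drops Ccl2 and Cx3cr1 and leaves 7 of the 9 genes. Without Hmox1f/f PdgfraCre array 1 and Hmox1f/f array 6 together, 2 of the 9 genes were lower with an unadjusted p under 0.05, against 5 with all arrays, and over all genes 358 were lower and 90 higher, against 1406 and 334 with all arrays. Leaving out single arrays gave 803 to 1490 genes lower and 145 to 616 genes higher. The count of lower genes was 803 without Hmox1f/f PdgfraCre array 1, 872 without Hmox1f/f array 4 and 816 without Hmox1f/f array 6, and that of higher genes was 616 without Hmox1f/f PdgfraCre array 2 and 145 without Hmox1f/f array 6. A further quantile normalization gave 609 genes higher, and 62.4% of genes with an unadjusted p under 0.05 were then lower, against 80.8% before it. The cause was not tested, other than that fewer arrays enter some of these fits.

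The 4 genes that overlapped between genotypes changed sign under some settings. With arrayWeights Ccl2 differed by -0.047, Ccl7 by -0.034 and Ccr2 by -0.068. Leaving out single arrays gave -0.04 to 0.11 for Ccl2, -0.01 to 0.28 for Ccl7 and -0.11 to 0.02 for Cx3cr1. Ccl2 turned without Hmox1f/f PdgfraCre array 3 (-0.0015) and without Hmox1f/f array 6 (-0.036), Ccl7 without Hmox1f/f PdgfraCre array 3 (-0.015), and Cx3cr1 without Hmox1f/f PdgfraCre array 1 (0.00095) and without Hmox1f/f array 5 (0.023). No paired analysis was possible because the genotypes share no replicate number.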
